A study of Mus musculus with 2 samples.

Results

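Immunoglobulin constant genes and plasma cell genes were followed through single cells sorted from the thymus. The set held 10 of the 32285 genes counted in the library of 2021, found by gene symbol: the light chain genes Igkc, Iglc1, Iglc2 and Iglc3, the heavy chain genes Ighm, Ighg2b, Ighg2c and Igha, and the plasma cell genes Jchain and Mzb1. Each of the 10 had UMIs (unique molecular identifiers, each standing for 1 captured RNA molecule). The 5 remaining constant genes of the gene list, Ighd, Ighg1, Ighg3, Ighe and Iglc4, were counted beside them.

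The cells came from adult C57BL/6 mice, were sorted for surface CD64 (the Fc gamma receptor encoded by Fcgr1) and are labelled as macrophages. How many animals were pooled is not given in the sources used here. The study has 2 such libraries, from 2021 and 2024, of 1 group, with no treatment or genotype set against another. Only the library of 2021 was used here with gene names, so every gene value below is from 1 library with no replicate, no test was possible, and barcodes shared between libraries were not analysed here.

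An antibody is built from heavy and light chains, and each B cell rearranges its heavy chain locus and then a kappa or lambda light chain locus, so that a mature cell as a rule makes 1 light chain and 1 heavy chain class. Ighm encodes the first heavy chain class to be made, and class switching joins the same variable region to Ighg or Igha genes further along the locus. Plasma cells devote much of their RNA to secreted antibody, link IgM and IgA through the J chain (Jchain), and fold the chains with helpers such as Mzb1, a resident of the endoplasmic reticulum.

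The constant genes lie in 3 clusters on the GRCm38 (mm10) assembly in the GENCODE M21 annotation. The heavy chain genes run on the minus strand of chromosome 12 in the order Ighm (113418558 to 113422730), Ighg2b (113302965 to 113307933), Ighg2c (113285325 to 113288932) and Igha (113254830 to 113260236). Igkc lies on the plus strand of chromosome 6 (70726435 to 70726966), and Iglc2 (19198396 to 19200351), Iglc3 (19065230 to 19065681) and Iglc1 (19061618 to 19062071) lie on the minus strand of chromosome 16. Jchain lies on the minus strand of chromosome 5 (88519809 to 88527891).

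Several of these genes are near copies, which bears on how far their counts can be told apart. The last 90 coding bases before the stop codon are shown for the 3 lambda genes, in capitals where they do not all carry the same base (29 positions). Their positions are chr16:19061755-19061844 for Iglc1, chr16:19198539-19198628 for Iglc2 and chr16:19065368-19065457 for Iglc3, all on the minus strand.
Iglc1: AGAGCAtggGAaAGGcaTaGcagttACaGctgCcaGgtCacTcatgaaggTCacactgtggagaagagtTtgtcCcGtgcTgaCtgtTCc
Iglc2: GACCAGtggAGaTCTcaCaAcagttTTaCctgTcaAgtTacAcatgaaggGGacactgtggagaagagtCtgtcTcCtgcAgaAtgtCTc
Iglc3: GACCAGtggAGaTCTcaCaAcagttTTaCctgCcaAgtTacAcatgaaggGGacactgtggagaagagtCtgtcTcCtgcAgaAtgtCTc

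Iglc2 and Iglc3 differed at 1 of these 90 positions, and Iglc1 differed from Iglc2 at 29. Over whole transcripts, 43 of 409 windows of 50 bases in Iglc2 were identical in Iglc3, whereas Iglc1 shared 0 of 405 windows with either. Counts of Iglc2 against Iglc3 are therefore reported as uncertain, and Iglc1 counts are the more separable of the 3.

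For the 2 IgG genes, the last 90 coding bases of the secreted form are chr12:113306392-113306481 (Ighg2b) and chr12:113287392-113287481 (Ighg2c), both minus strand, with the 28 differing positions in capitals.
Ighg2b: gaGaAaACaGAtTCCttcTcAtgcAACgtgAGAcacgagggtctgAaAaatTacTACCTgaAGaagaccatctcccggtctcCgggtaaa
Ighg2c: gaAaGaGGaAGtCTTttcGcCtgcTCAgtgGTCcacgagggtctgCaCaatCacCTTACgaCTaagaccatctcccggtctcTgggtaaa

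A pair of kappa variable genes enters the results on shared variable genes. Their last 90 coding bases are chr6:68271178-68271267 (Igkv1-110) and chr6:68121738-68121827 (Igkv1-117), both plus strand, with the 4 differing positions in capitals.
Igkv1-110: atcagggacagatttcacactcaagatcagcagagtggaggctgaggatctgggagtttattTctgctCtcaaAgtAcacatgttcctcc
Igkv1-117: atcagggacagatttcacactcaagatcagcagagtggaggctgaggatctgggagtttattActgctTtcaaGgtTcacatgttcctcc

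Ighg2b and Ighg2c shared 56 of 1065 windows of 50 bases. Igkv1-110 and Igkv1-117 shared 177 of 352, so the counting could assign a molecule of one to the other.

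The library held 3214 barcodes with 502 to 18653 UMIs each (median 2158), and the library of 2024 held 2815 barcodes with a median of 5312. Of the 3214, 3188 were used, those with 500 UMIs and 300 genes or more whose mitochondrial share did not exceed 10%. Clusters were made without any immunoglobulin gene, Jchain or Mzb1, and named from marker lists, after 3 called doublets (0.0941%) were left out. The label of macrophage held for 371 cells by their markers, with Fcgr1 at 139 UMIs per 1000000 UMIs of the same cells (CPM; 95% interval 118 to 163) there and 76.2 CPM (59.9 to 95.5) in 464 monocyte-like cells. Most other cells were conventional DC-like (812), neutrophil-like (487), T lineage-like (380), NK and ILC-like (297) or B lineage-like (200), 11 were mast and basophil-like, and 2 clusters, of 138 dividing cells and of 12 cells led by Elane and Prtn3, stayed unnamed. These numbers leave out the 13 immunoglobulin-high cells defined in the next paragraph. All intervals are exact and cover counting error only.

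Immunoglobulin RNA was held by very few cells. The constant genes together gave 53120 UMIs, or 6237 CPM, and 13 cells that took at least 5% of their UMIs from these genes held 45314 of them (85.3%). These 13 cells, called immunoglobulin-high here, were 0.408% of the cells that passed (0.217 to 0.696%). The 200 other B lineage-like cells held 11.5% of the constant gene UMIs, and all remaining cells 3.19%. The 4 highest cells held 50% of the UMIs and the 51 highest held 90%.

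The constant genes chose the 13 cells, so their levels there are a description. Constant genes made up 20.5 to 74.5% of the UMIs in cells 1 to 12, numbered from the highest share down, and 5.52% in cell 13, the lowest inside the threshold. The highest cell outside it had 4.27%. At a threshold of 10% there were 12 cells, and at 2% there were 79.

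**Figure D1:**
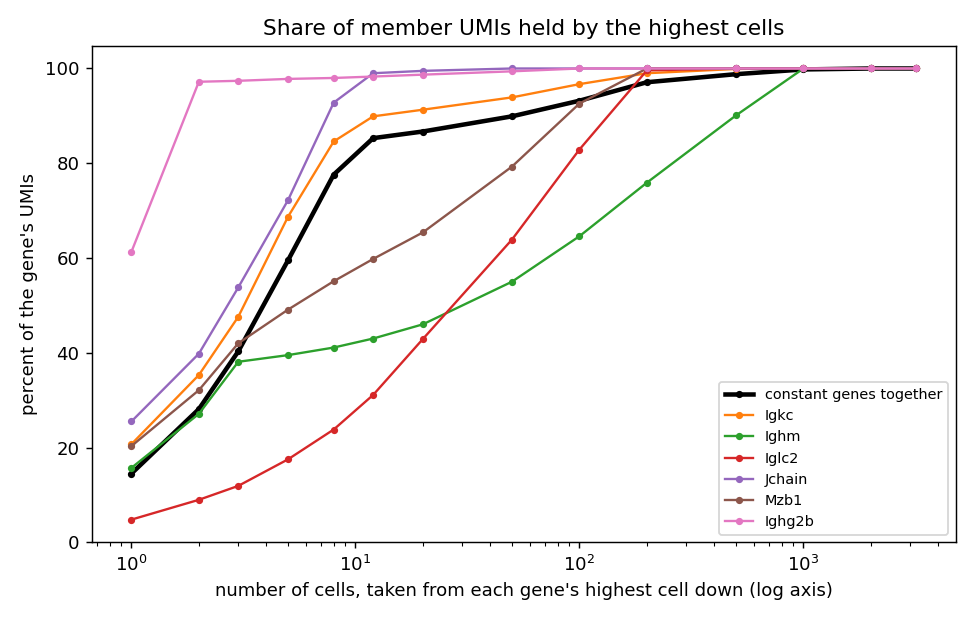
Percent of each gene's UMIs (vertical axis) held by its highest cells, counted from the highest down (horizontal log axis), for 6 genes and for all constant genes together in the 3188 cells. Ighg2b reaches 97.2% within 2 cells and Igkc 88.9% within 10, whereas Iglc2 rises slowly. Ighm reaches 38.1% within 3 cells and rises slowly after that.

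The curves of UMIs against number of cells separate the genes into those held by single cells and those spread over many. Igkc, the kappa constant gene, gave 36886 UMIs in 526 cells, and its 3 highest cells held 7630, 5402 and 4514. Its 10 highest cells held 88.9% of its UMIs. Iglc1 rested on 1 cell: 3941 of its 4484 UMIs (87.9%) were in cell 4, and the next cell held 49.

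Iglc2 was the most evenly spread of the light chain genes. It gave 1339 UMIs with 64 in its highest cell, and 29 cells were needed to reach 50%. The 13 immunoglobulin-high cells held 22.5% of its UMIs and the other B lineage-like cells 72.5%. Iglc3 gave 828 UMIs, of which 246 were in 1 cell (cell 5) and 29 in the next.

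Among heavy chains, the switched classes were held by a handful of cells and Ighm was not. Ighg2b gave 4316 UMIs, with 2646 and 1547 in its 2 highest cells and 12 in the third. Ighg2c gave 1311 UMIs, with 1013, 167 and 103 in its 3 highest cells. Igha gave 946 UMIs, with 460, 387 and 53 in its 3 highest cells. Immunoglobulin-high cells held 97.1 to 98.4% of the UMIs of these 3 genes.

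Ighm, the IgM heavy chain gene, gave 2948 UMIs in 791 cells (24.8% of cells), the widest spread of the 10 genes. Immunoglobulin-high cells held 38.8% of its UMIs, other B lineage-like cells 31.6% and all remaining cells 29.6%. Of the constant genes beside the set, Ighd gave 37 UMIs, Ighg3 24 and Iglc4 1. Ighg1 and Ighe gave 0 UMIs.

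The plasma cell genes differed from each other in the same way. Jchain gave 2027 UMIs in 30 cells, 98.9% of them in immunoglobulin-high cells. Mzb1 gave 890 UMIs in 163 cells, 56.7% in immunoglobulin-high and 38.1% in other B lineage-like cells. Jchain was not used to choose the 13 cells or to cluster.

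Isotype use was single in nearly every immunoglobulin-high cell. A cell was read for its heavy chain where it had at least 5 heavy chain UMIs, and called single where 1 gene held at least 90% of them. By that measure 12 of 12 cells read were single (73.5 to 100%): 4 for Igha, 3 for Ighm, 3 for Ighg2c and 2 for Ighg2b. The interval of each class share is wide, for Igha 9.92 to 65.1%.

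**Figure D2:**
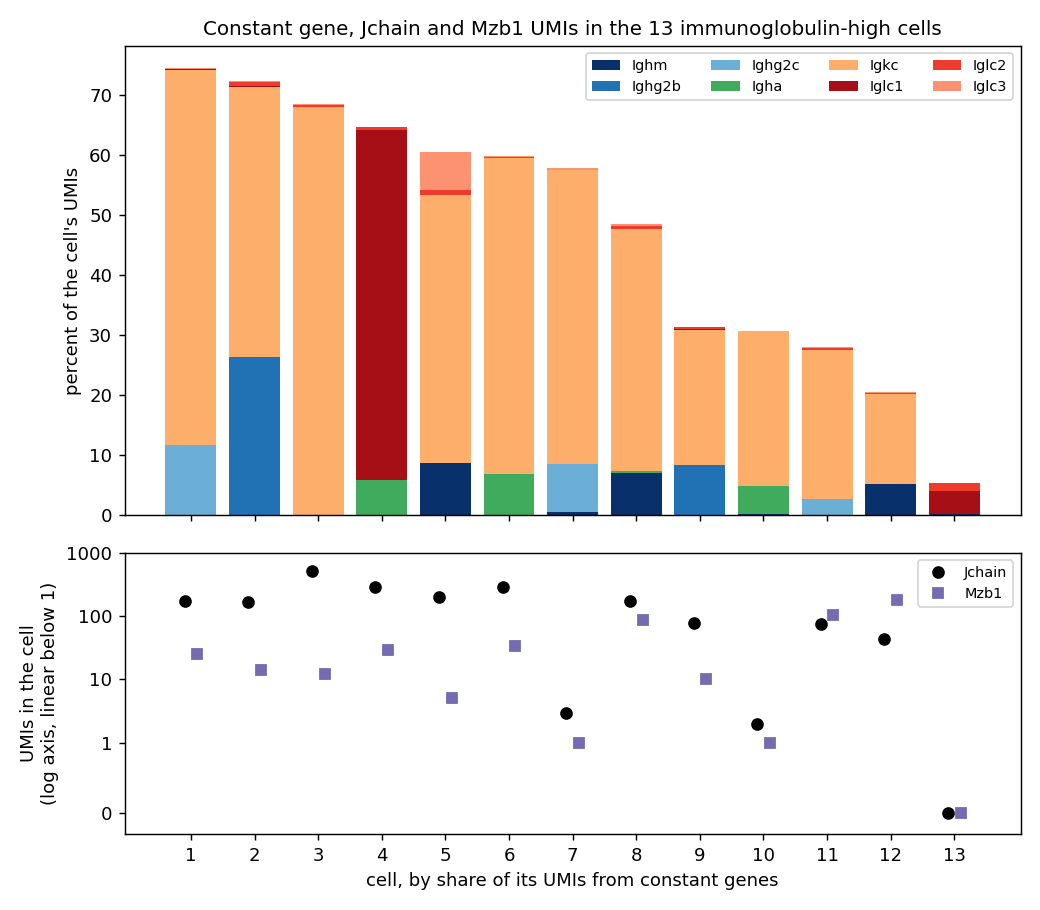
Top, percent of each cell's UMIs from each constant gene (stacked bars) in the 13 immunoglobulin-high cells, ordered by the total; bottom, Jchain and Mzb1 UMIs in the same cells (log axis, linear below 1). Igkc fills most of 11 bars, Iglc1 leads in cells 4 and 13, and Jchain is at 43 or more UMIs in 10 cells.

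The bars of constant gene shares show 1 colour of heavy chain to a cell. The 3 Ighm cells were cell 5 (336 Ighm of 337 heavy chain UMIs), cell 8 (462 of 475) and cell 12 (324 of 324). In cell 8 the other 13 heavy chain UMIs were Igha. The other 9 cells read led with a switched class.

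The 3 Ighg2c cells, of the IgG class that C57BL/6 mice carry in place of IgG2a, were cell 1 (1013 of 1023 heavy chain UMIs), cell 7 (103 of 110) and cell 11 (167 of 167). In cell 1 the other 10 UMIs were Ighg3, and they were the most Ighg3 UMIs in any cell. The 2 Ighg2b cells were cell 2 (2646 of 2649) and cell 9 (1547 of 1559). Despite the shared windows, cell 2 had 3 Ighg2c UMIs beside 2646 of Ighg2b, and cell 1 had 0 Ighg2b UMIs beside 1013 of Ighg2c.

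The 4 Igha cells were less alike. Cell 6 had 460 Igha UMIs of 464, cell 4 had 387 of 391, and cell 10 had 53 of 55. Cell 3, the cell with the most Igkc UMIs, had 6 heavy chain UMIs in all, each of them Igha. It held 7630 Igkc UMIs, so its light chain UMIs were 1281 times its heavy chain UMIs, against 1.74 to 10.2 times in the other 11 cells read.

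For the light chain, kappa held at least 90% in 10 of 13 cells (76.9%) and lambda in 2 of 13. Cell 4 was the clear lambda cell, with 3941 Iglc1 and 1 Igkc UMIs. Cell 13 had 20 Iglc1, 7 Iglc2 and 0 Igkc UMIs from only 525 UMIs in all. Cell 5 was neither, with 1721 Igkc (86.0%) and 246 Iglc3 UMIs.

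Jchain followed the immunoglobulin-high cells with few exceptions. Of the 13 cells, 10 had at least 10 Jchain UMIs (43 to 517), and 0 other cells did. The remaining 3 were cell 7 with 3, cell 10 with 2 and cell 13 with 0. Cells 7, 10 and 13 were also the shallowest, with 1289, 1145 and 525 UMIs.

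Jchain was high in some cells of each heavy chain class, but not in every cell of the IgG and Igha classes. Its UMIs were 201, 172 and 43 in the Ighm cells 5, 8 and 12, and 517, 289 and 284 in the Igha cells 3, 4 and 6. In the IgG cells they were 171 in cell 1, 168 in cell 2, 79 in cell 9 and 76 in cell 11. Levels in IgG cells and in IgM cells overlapped.

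Mzb1 was ordered differently. Its highest cells were cell 12 with 181 UMIs, cell 11 with 105 and cell 8 with 88. In the other 10 cells Mzb1 ran from 0 to 34 UMIs. Cells 11 and 12 had the smallest constant gene shares of the 10 cells high in Jchain, 27.9% and 20.5%.

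Variable genes gave a readout that the choice of cells did not use. The assay reads the 3′ end of a transcript, and the variable region lies toward the 5′ end. Of 348 variable genes 63 were detected, with 999 UMIs in all, against 16217 of all 32285 genes. Why few variable genes were detected was not tested. The heavy chain variable gene was read in 10 of the 13 cells.

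Some of these cells shared variable genes across heavy chain classes. Cells 1 and 9 both led with Igkv1-110 (25 and 81 UMIs) and Ighv1-81 (5 and 15 UMIs), while cell 1 carried Ighg2c and cell 9 Ighg2b. Both also had Igkv1-117 (14 and 22 UMIs), the near copy printed above, so these are reported as 1 uncertain pair of kappa genes. Ighv1-81 had a UMI in 0 other cells.

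Cells 6 and 11 shared Igkv2-137 (4 and 4 UMIs) and Ighv10-3 (14 and 6 UMIs), with Igha in cell 6 and Ighg2c in cell 11. Ighv10-3 also had a UMI in 0 other cells. Cells 2 and 8 shared Ighv14-1 (18 and 3 UMIs) but led with different kappa genes, Igkv19-93 (46 UMIs) and Igkv9-120 (58 UMIs). Whether cells with shared variable genes come from 1 clone was not tested, since the rearranged junctions are not in these counts.

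Cells 3, 5 and 12 led with variable genes seen in no other of the 13. Cell 3 had 96 Igkv3-12 UMIs, cell 12 had 54 Ighv5-6 UMIs and cell 5 had 19 Igkv3-5 and 17 Ighv8-8 UMIs. Iglv1, the lambda variable gene, led in the lambda cell 4 with 149 UMIs. It also had UMIs in 8 other immunoglobulin-high cells that were kappa-led, up to 86 in cell 3 and 29 in cell 2, with 7 and 17 Iglc1 UMIs there.

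Of the 13 cells, 10 fell in the B lineage-like cluster, and the other 3 in clusters of other types. Cell 9, with 18653 UMIs the deepest cell of the library, lay in the unnamed cluster led by Elane and carried 3111 UMIs of 4 neutrophil markers. Cell 10 lay among T lineage-like cells and carried 11 UMIs of 8 T lineage markers. Cell 11 lay among conventional DC-like cells with 0 UMIs of their markers and 10 UMIs of 4 B lineage markers. Cells 7, 9 and 10 were among the 6% with the highest doublet scores, and whether cells 9 and 10 were 1 cell each was not tested.

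B lineage-like cells outside the 13 carried far fewer immunoglobulin UMIs. Over these 200 cells, Igkc ran from 0 to 91 UMIs with a median of 13, and Ighm from 0 to 24 with a median of 4. Iglc2 ran from 0 to 40 with a median of 3, and Mzb1 from 0 to 14 with a median of 1. Igkc in the lowest kappa-led immunoglobulin-high cell (295 UMIs) was above the highest of these cells. Constant genes, Igkc among them, set the 13 cells apart, so this gap is a description.

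In CPM, Igkc was 8461 (8173 to 8756), Iglc2 2514 (2358 to 2677), Ighm 2410 (2258 to 2570) and Mzb1 878 (787 to 976) in the other B lineage-like cells. Jchain there was 8 UMIs in 5 cells, or 20.7 CPM (8.94 to 40.8). Mzb1 was thus a gene of the whole B lineage-like class in this library, and Jchain was nearly absent outside the 13 cells.

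Of these 200 cells, 46.5% could be read for their heavy chain, and those were mostly led by Ighm. Of 93 with at least 5 heavy chain UMIs, 86 led with Ighm (92.5%; 85.1 to 96.9%), 6 with Ighg2b and 1 with Ighg3. Igha and Ighg2c led in 0 of 93, which allows a share of up to 3.23%. Single use at 90% was met by 61 of 93 (65.6%). Over all 200 cells, including those not read, the median was 4 Ighm UMIs a cell.

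Kappa led, and lambda UMIs were seen beside it. Of 192 cells with at least 5 light chain UMIs, 151 had kappa at 50% or more and 41 had less. Neither light chain reached 90% in 153 of 192 (79.7%; 73.3 to 85.1%). The 17 cells with 0 Igkc UMIs held 113 Iglc1, 180 Iglc2 and 65 Iglc3 UMIs.

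**Figure D3:**
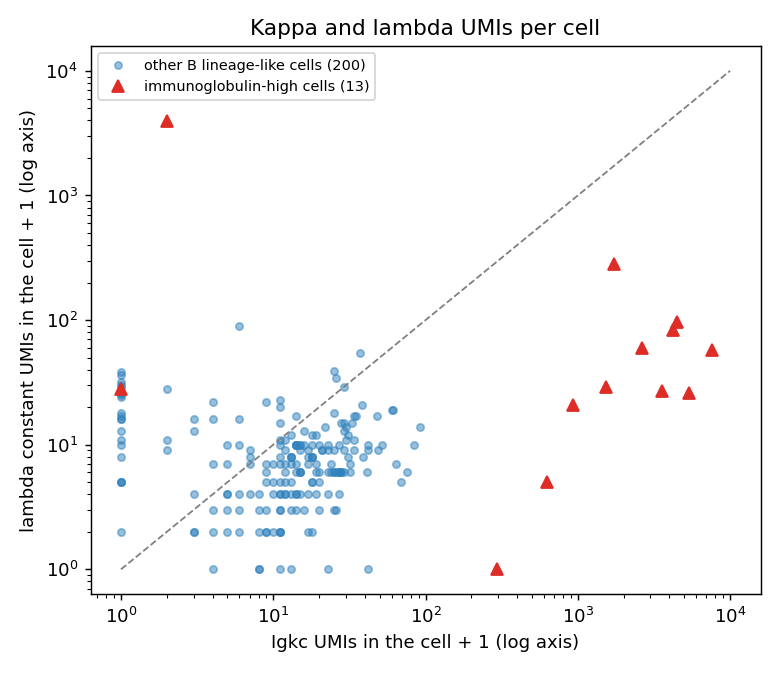
Igkc UMIs (horizontal) against summed lambda constant UMIs (vertical) in each cell, both plus 1 on log axes; circles are the 200 other B lineage-like cells, triangles the 13 immunoglobulin-high cells, and the broken line marks equal counts. Cell 4 stands alone at the top left, and most circles lie below the line with lambda UMIs above 0.

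The scatter of kappa against lambda UMIs shows lambda UMIs in most kappa-led cells, and by gene these were 520 Iglc2, 282 Iglc3 and 137 Iglc1 UMIs. Among the 151 kappa-led cells, 86.1% had an Iglc2 UMI (1786 CPM; 1636 to 1946), 74.8% an Iglc3 UMI and 41.7% an Iglc1 UMI. In the 41 cells with less kappa, Iglc2 was 5169 CPM (4697 to 5674) and Iglc1 2860 CPM (2512 to 3242), against 470 CPM (395 to 556) for Iglc1 in kappa-led cells. As a ratio, Iglc1 therefore differed more between these cells than Iglc2 did, and as a difference in CPM Iglc2 differed more. In the 41 cells, 49 of the 244 Iglc1 UMIs were in 1 cell. The cells were grouped by these same UMIs, so the contrast is a description.

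The Iglc2 UMIs of kappa-led cells exceeded the level in cells of other types. Iglc2 was 6.16 CPM (4.48 to 8.27) in all named classes other than B lineage-like, with a UMI in 0.567% of those cells. In NK and ILC-like cells it was in 0 of 297 cells, which allows a share of up to 1.01%. Ighm was 2435 CPM in kappa-led cells and 2520 CPM in the 41 with less kappa. Cd79a, a part of the B cell receptor, was 3414 and 3258 CPM. Each value lay within the other's interval. In the 17 of the 41 with 0 Igkc UMIs, Ighm was 3070 CPM (2487 to 3749) and Cd79a 3965 CPM (3298 to 4728). Both were higher than in kappa-led cells, with intervals that overlapped. Mzb1 was 810 CPM (710 to 921) in kappa-led cells and 1149 CPM (932 to 1400) in the 41 with less kappa. These intervals did not overlap, but the 17 of the 41 with 0 Igkc UMIs had 895 CPM (595 to 1294), which overlapped both.

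Outside the B lineage, immunoglobulin UMIs were low in every class, and Igkc and Ighm behaved differently. Igkc was 66.1 CPM (60.3 to 72.3) over the 2822 cells of the named classes and had a UMI in 10.9% of them. It was 61.2 CPM in neutrophil-like, 62.9 in conventional DC-like, 64.0 in T lineage-like and 66.0 in NK and ILC-like cells, each within the others' intervals. It was 42.7 CPM (30.8 to 57.7) in monocyte-like and 102 CPM (84.0 to 123) in macrophage-like cells.

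**Figure D4:**
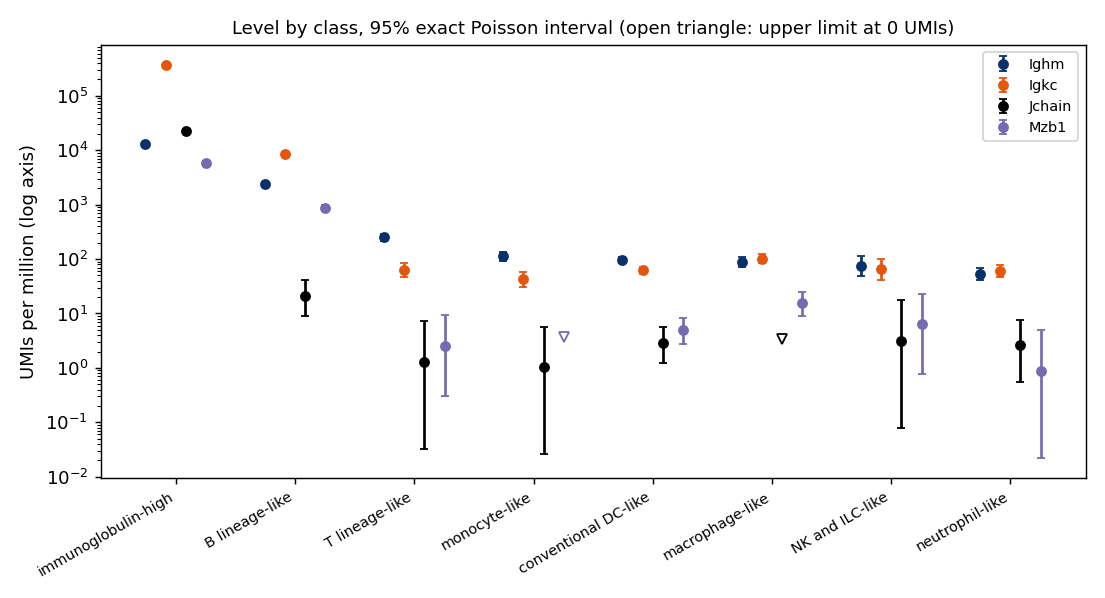
CPM (log axis) of Ighm, Igkc, Jchain and Mzb1 in the immunoglobulin-high cells and in 7 classes without them; bars are 95% exact Poisson intervals and open triangles the upper limit of that interval where 0 UMIs were counted. Ighm is above Igkc in T lineage-like, monocyte-like and conventional DC-like cells, and below it in B lineage-like and immunoglobulin-high cells.

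The plot of level by class shows the higher macrophage-like value for Igkc, which rested on few cells. Of the 2 macrophage-like clusters, the one with Vcam1, Mertk and Spic among its leading genes (79 cells) had 237 CPM (181 to 305), with 24 of its 60 Igkc UMIs in 1 cell. The other (292 cells, led by Ccl12 and Pf4) had 61.1 CPM (45.5 to 80.3).

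Over all cells outside the B lineage-like class and the 13, 16 cells with at least 3 Igkc UMIs held 203 of 544 Igkc UMIs (37.3%). At least 2 B lineage markers had a UMI in 12 of these 16 cells, against 41 of the 2956 other cells (1.39%). Without cells of 3 or more Igkc UMIs, Igkc fell to 44.4 CPM over the named classes. B lineage markers thus moved with the high Igkc counts, and their part in the class levels beyond that was not tested.

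Ighm differed between classes, also among the neutrophil-like, conventional DC-like, T lineage-like and NK and ILC-like cells, whose Igkc levels were alike. It was 250 CPM (216 to 287) in T lineage-like cells, 112 (91.9 to 135) in monocyte-like, 98.1 (86.8 to 110) in conventional DC-like, 87.4 (70.7 to 107) in macrophage-like, 75.4 (48.3 to 112) in NK and ILC-like and 53.3 (40.8 to 68.5) in neutrophil-like cells. The T lineage-like level lay above every other of these intervals, and neighbours in the rest of that order overlapped. Its 195 UMIs were spread over 112 of 380 cells, with at most 7 in a cell. The conventional DC-like cluster of 690 cells also had raised Siglech and other markers of plasmacytoid dendritic cells. Conventional DC-like Ighm was 80.8 CPM with no cell filter and 75.7 CPM under the stricter filter, where a plasmacytoid DC-like cluster formed. With all genes in the clustering it was 84.6 CPM, and the other clustering settings gave 93.2 to 98.7 CPM.

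Thinning cells to 2000 UMIs, which leaves out shallower cells, left the T lineage-like share of cells with an Ighm UMI above the others. It was 40.5% of 111 cells (31.3 to 50.3%), with 269 left out, against 29.5% of all 380 before thinning (median 1053 UMIs). Neutrophil-like cells, which do not make antibody, had 8.12% of 197 (4.71 to 12.9%) with 290 left out, and 9.65% of all 487 before thinning (median 1704 UMIs). The thinned share was 21.4% of 224 monocyte-like, 16.0% of 727 conventional DC-like and 14.4% of 250 macrophage-like cells. For Igkc the same thinned shares were 5.41% in T lineage-like cells and 7.61 to 10.4% in the other 4 classes.

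The makeup of the UMIs also differed by class. Ighm was 79.6% of Ighm and Igkc UMIs together in T lineage-like cells (74.0 to 84.5%) and 72.4% in monocyte-like cells (64.5 to 79.3%). It was 46.6% in neutrophil-like (37.8 to 55.5%) and 46.1% in macrophage-like cells (39.2 to 53.2%). In B lineage-like cells it was 22.2% and in the immunoglobulin-high cells 3.34%. Without cells of 3 or more Igkc UMIs, the Ighm share in macrophage-like cells was 62.0% (53.4 to 70.2%), which overlapped the monocyte-like interval. On that basis it was 48.6% (38.8 to 58.5%) in neutrophil-like and 82.8% (77.3 to 87.4%) in T lineage-like cells. The source of the UMIs outside the B lineage was not tested. UMIs of 3′ ends do not scale with transcript length, so these shares are of molecules.

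Within T lineage-like cells, most Ighm UMIs were in the cluster led by Dntt and Rag1, genes of receptor rearrangement. It held 176 of the 195 UMIs in 289 cells, at 265 CPM (228 to 308). The smaller cluster led by Tnfrsf4 and Icos had 162 CPM (97.3 to 252), and the intervals overlapped. Igkc was 60.3 and 85.0 CPM in these clusters.

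Jchain was near 0 outside the B lineage, and Mzb1 was low over the named classes but not in every group of cells. Jchain was 1.96 CPM (1.07 to 3.29) over the named classes, with a UMI in 13 of 2822 cells, and 0 UMIs in 371 macrophage-like cells, which allows a share of up to 0.809%. Mzb1 was 5.04 CPM (3.53 to 6.98), highest of these classes in macrophage-like cells at 15.6. There 15 of the 17 UMIs were in the Vcam1 cluster, at 59.3 CPM (33.2 to 97.8). A group of 25 cells with Siglech, given under the other observations, had 161 CPM of Mzb1 (90.1 to 266), with 10 of 15 UMIs in 1 cell. Jchain was 2.51% of Jchain and Igkc UMIs together outside both groups (1.38 to 4.17%), against 5.72% in immunoglobulin-high cells and 0.244% in other B lineage-like cells.

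Genes with a pattern like 3 of the members were ranked by Pearson r of log-normalised counts over the 3188 cells, as a description, since the cells share a library and differ in depth. Ighm was most like Cd79a (0.60), Mzb1 (0.51), Ms4a1 (0.50), Cd79b (0.49) and Ly6d (0.49), genes of B cells in general. Mzb1 was most like Cd79a (0.71), Ms4a1 (0.61), Cd79b (0.61), Ebf1 (0.54) and Ly6d (0.49). Jchain was most like Eaf2 (0.53), Fkbp11 (0.39), Mzb1 (0.35), Derl3 (0.31) and Oosp1 (0.25), the last with 27 UMIs in all.

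The remaining genes of the 13 cells were compared with the 200 other B lineage-like cells, with immunoglobulin genes taken out of the totals. Of 15 genes listed for antibody-secreting cells, 11 had enough UMIs to compare, and 8 were at least 2-fold higher and 0 lower. Over all 4336 genes compared, 16.3% were at least 2-fold higher and 12.8% at least 2-fold lower. The median log2 ratio was 4.55 for the list and 0.00 for all genes. The ratio compares cells of 1 library and has no replicate check.

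Genes of the secretory pathway were among the 8. Xbp1, the transcription factor of the secretory programme, had 76 UMIs in 12 of the 13 cells and 22 UMIs in the 200, a log2 ratio of 4.98 (4.28 to 5.73). Derl3, which serves disposal of misfolded protein from the endoplasmic reticulum, had 28 against 5 UMIs (5.67; 4.28 to 7.40), and Edem1 of the same pathway 56 against 26 (4.29; 3.60 to 5.02). Sec11c of the signal peptidase had 110 against 128 (2.97; 2.59 to 3.35). The other 4 were Txndc5 (4.55), Creld2 (5.19), Fkbp11 (5.91) and Eaf2 (8.51; 5.95 to 13.85, from 40 UMIs against 1).

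The list's other compared genes, Irf4 (0.87), Tnfrsf13b (−0.05) and Pou2af1 (−0.40), had log2 ratios with intervals that spanned 0. Sdc1, the gene of the plasma cell surface marker CD138, had 7 UMIs in 4 of the 13 cells and 0 in the 200. Prdm1, the gene of Blimp-1, had 3 UMIs in each group, too few to compare. On the same scale Mzb1 had a log2 ratio of 3.76 (3.56 to 3.97) and Jchain, the largest of all genes named by rule, 11.16 (10.18 to 12.37).

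**Figure D5:**
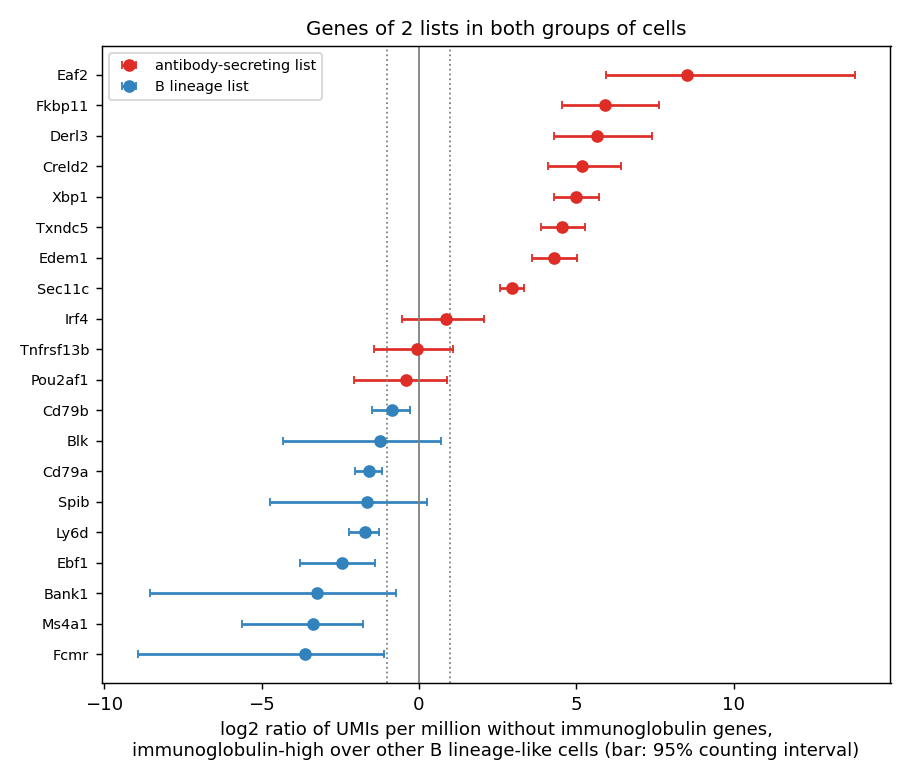
Log2 ratio of CPM without immunoglobulin genes, immunoglobulin-high over other B lineage-like cells (horizontal), for genes of the antibody-secreting and B lineage lists drawn here with UMIs in both groups; bars are 95% counting intervals and dotted lines mark 2-fold. The 8 antibody-secreting genes past 2-fold lie on the right and 8 B lineage genes on the left.

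The plot of log2 ratios shows the B lineage list on the other side. Of its 12 genes, all compared, 9 were at least 2-fold lower and 0 higher, with a median log2 ratio of −1.68. Ms4a1 (CD20) had 3 UMIs in the 13 cells and 278 in the 200, a log2 ratio of −3.35 (−5.63 to −1.78). Cd79a had 48 against 1300 (−1.57; −2.02 to −1.16). For Spib and Blk the interval spanned 0, and Pax5 and Cd22 had 0 UMIs in the 13 cells.

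By the rule of largest ratio at 50 CPM or more in the higher group, the named genes after Jchain were Elane (9.56; 7.04 to 14.88), Slpi (8.99; 7.93 to 10.32), Eaf2 and Prtn3. All 83 Elane UMIs were in 1 cell, as were 70 of the 71 Prtn3 UMIs. Slpi, a secreted protease inhibitor, had 391 UMIs in 6 cells. In the lower direction they were S100a6 (−7.55; 1 against 1707 UMIs), Btg1 (−4.97), Apoe (−4.15), Lsp1 (−3.95) and H2-Ob (−3.81).

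Markers of other cell types were counted beside this comparison. Neutrophil markers summed to 0 to 2452 per 10000 non-immunoglobulin UMIs in the 13 cells (median 4.53) and 0 to 199 in the 200 (median 0), with 5 of 10 markers at 0 in the 13, and 1562 of 1567 S100a8 UMIs were in 1 cell. With only the 10 cells of the B lineage-like class, 4 of 4 neutrophil genes past 2-fold became 0 of 4, and the antibody-secreting and B lineage counts were 9 higher and 9 lower. Monocyte markers ran from 6.79 to 276 (median 51.5) in the 13 cells and from 0 to 105 (median 11.8) in the 200, with 4 of 10 at 0, and 405 of the UMIs were Ly6c2, a surface antigen gene that mouse plasma cells also express, in 11 of the 13 cells. Macrophage markers were at 0 for 8 of 10 genes in the 13 cells and for 1 of 10 in the 200. The 13 cells held 41719 non-immunoglobulin UMIs and the 200 held 380042. Of 6 macrophage genes compared, 0 were at least 2-fold higher and 0 lower. Fcgr1, the gene of the sorted antigen, had 0 UMIs in the 13 cells (upper limit 42.0 CPM). It had 5 UMIs in the 200, or 12.9 CPM (4.20 to 30.2). That limit lies above the level of the 200, so a lower level in the 13 cells was not shown.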

How the data were processed

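Single-cell libraries were made with 10x Genomics 3′ chemistry from CD64-sorted thymus cells of adult C57BL/6 mice. The deposited values are raw counts, 1 for each UMI of a gene in a barcode, made by the authors with Cell Ranger 6.0.0 (2021) and 8.0.0 (2024) per the file headers, on mm10 per the submitters' processing notes. Whether intron reads were counted is not given in the sources used here. The library of 2021 held 8534578 UMIs (8517422 in the 3188 cells used) and that of 2024 held 24569270; the gene and barcode lists of the latter were not used here. The members and marker lists were chosen with earlier results of these data known.

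Cells were clustered with scanpy 1.11.5 (2000 variable genes, 30 components, 15 neighbours, Leiden resolution 0.5, Scrublet at an expected 6% doublets) without immunoglobulin genes, Jchain or Mzb1. A cluster took a name from at least 3 raised markers. Levels are summed UMIs per 1000000 with exact Poisson intervals, shares have Clopper-Pearson intervals, both at 95%, and a share at 0 is given the limit of 3 counts. The ratio of summed levels took genes with at least 10 UMIs, set a group at 0 to a floor of 3 UMIs, called 2-fold, and was tested on simulated data. By the rule for named genes, the text names the 10 members, the other constant genes, both lists, the 5 genes most like Ighm, Jchain and Mzb1 (at least 20 UMIs) and the 5 largest ratios each way at 50 CPM or more. One gene of the B lineage list is counted with its list and not reported here by name. Alternatives changed cell filters, doublets, clustering, thresholds, thinning and scaling. Sequences and coordinates are from GENCODE M21 (GRCm38, the build of the counts).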

Additional observations from a re-analysis of the deposited data

How the results depend on the processing

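The 85.3% of constant gene UMIs in immunoglobulin-high cells was 86.4% under the stricter cell filter, 84.7% without the highest doublet scores, 82.8% without the cell with the most constant UMIs and 90.7% at a threshold of 2%, where 79 cells passed in place of 13. Igkc in neutrophil-like cells was 45.3 CPM under the stricter filter (61.2 otherwise). Igkc over the named classes was 44.4 CPM without cells of 3 or more Igkc UMIs, an alternative chosen after seeing the data. Single heavy chain use in other B lineage-like cells (65.6%) was 80% with at least 10 UMIs and 81.7% at a share of 80%, and the 79.7% with neither light chain single was 54.2% at that share. Genes at least 2-fold higher, 706, were 401 at the 2% threshold, 1595 with 3 UMIs in total and 1623 against all other cells. Genes at least 2-fold lower, 557, were 371 with only cells of the B lineage-like class, also chosen after seeing the data. Antibody-secreting genes higher were 13 against all other cells (8 otherwise). B lineage genes lower were 0 at the 2% threshold (9 otherwise) and 0 against all other cells, where the list's median log2 ratio turned to 1.18. Those settings put B cells into the high group or non-B cells into the other. The other 97 values that answer a comparison kept within the interval or within 1.5 times of the count. One library, 13 cells and 41719 non-immunoglobulin UMIs in them limit every ratio. No paired analysis was possible because 1 library was used and no groups were compared across samples.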

Other observations

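Groups of cells chosen after their values were seen gave further levels. T lineage-like cells with a Dntt or Rag1 UMI (261 cells) had 263 CPM of Ighm (225 to 306), and those without (119 cells) had 194 CPM (130 to 278), with Igkc at 60.2 and 80.1 CPM. The intervals of both genes overlapped between these groups.

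A group of 25 cells with a UMI of Siglech, a marker of plasmacytoid dendritic cells, and of at least 2 other such markers had 354 CPM of Ighm (244 to 497), with a UMI in 18 cells. Their Mzb1 was 161 CPM (90.1 to 266), with 10 of its 15 UMIs in 1 cell, and their Igkc was 85.9 CPM (37.1 to 169). Jchain had 0 UMIs in the 25 cells.

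The dividing cells that stayed unnamed (138 cells, median 5499 UMIs) had 133 CPM of Ighm (108 to 161) and 91.5 CPM of Igkc (71.5 to 115). One of these cells held 20 of the 71 Igkc UMIs. Of their light chain UMIs 50.7% were lambda (73 of 144), and 45 of these were Iglc1 UMIs of 1 cell. Once cells with 3 or more Igkc UMIs were left out, 0 of 26 were lambda.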
